A study of Mus musculus with 15 samples.

Results

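The baseline of the embryonic mouse intestine in this series was given by 5 control libraries out of 15, those labelled Casp8 wildtype MLKL knockout. Each is RNA-seq of mouse intestine at stage E16.5 (days of embryonic development), labelled as small intestine and as normal tissue. The controls kept wildtype Casp8, which encodes the initiator protease caspase-8, and lacked Mlkl, which encodes the pseudokinase that carries out necroptosis. The other 10 libraries shared the Mlkl knockout and carried either a Casp8 knockout (5 libraries, labelled normal) or a Casp8 C362A knockin (5 libraries, labelled as inflammation), in which the catalytic cysteine of caspase-8 is replaced. The controls are therefore wildtype at Casp8 only, and no library with wildtype Mlkl was analysed here. Strain, sex, litter and whether tissue of several embryos was pooled are not stated in the labels. Nothing there says that libraries of a group came from separate embryos, so p-values measure the spread between these libraries only. Controls are numbered 1 to 5 in the order of their sample records, and the numbers pair nothing.

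At this stage the gut tube of the mouse has folded into villi covered by an epithelium of absorptive enterocytes, goblet cells that secrete mucus and hormone-secreting enteroendocrine cells. Below it lie fibroblasts, smooth muscle, vessels, an enteric nervous system that entered with neural crest cells, and an outer mesothelium. Paneth cells, the antimicrobial cells of the crypt base, form after birth in the mouse, and sucrase takes over from lactase at weaning. Fetal red blood cells and their precursors arrive from the liver through the blood.

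Levels are given as nRPKM (reads per kilobase of gene, scaled by a size factor for each library, as deposited), which allows genes to be compared per length. Variation between libraries was computed from the deposited counts. Total counts lay between 31896399 and 36335304 in the controls and between 32075398 and 38532127 in the other libraries. A count was found for 23077 to 23875 genes in a control and for 22295 to 24039 genes in another library. Casp8 itself had 67.3, 68.9, 77.5, 74.3 and 62.3 counts per 1000000 (CPM) in controls 1 to 5, against 12.2, 40.4 and 72.8 CPM as the lowest, median and highest of the other 10 libraries. Mlkl had 11 to 24 counts per control (0.123 to 0.306 nRPKM), against 0.0728 to 0.323 nRPKM in the other genotypes, and no unmutated library stood beside them. Control 5 stood apart by high Xist and nearly absent Y-linked RNA, while the other 4 controls showed the reverse. No 2 control libraries were a repeat of each other: across the well-counted genes, the chi-square per gene lay between 25.2 and 138.2 for the 10 pairs.

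The sequences shown here belong to genes on which the levels that follow turn. The first is the Mir675 hairpin (RefSeq, GRCm38.p6, chr7:142577064-142577147, minus strand), which is an exonic stretch of the H19 transcript and shares its reads. Capitals mark its 2 mature microRNAs.
Mir675: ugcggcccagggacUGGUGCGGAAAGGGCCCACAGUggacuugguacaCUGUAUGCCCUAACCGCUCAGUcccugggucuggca
The others are promoters of enterocyte genes, from 250 bases before to 50 bases after the start of each gene (RefSeq, GRCm38.p6, plus strand for all 3). These genes moved together between the control libraries. Capitals mark the letters TTTATNG on either strand, a core of the binding motif of the caudal-type factors Cdx1 and Cdx2.
Fabp1 promoter, chr6:71199629-71199928: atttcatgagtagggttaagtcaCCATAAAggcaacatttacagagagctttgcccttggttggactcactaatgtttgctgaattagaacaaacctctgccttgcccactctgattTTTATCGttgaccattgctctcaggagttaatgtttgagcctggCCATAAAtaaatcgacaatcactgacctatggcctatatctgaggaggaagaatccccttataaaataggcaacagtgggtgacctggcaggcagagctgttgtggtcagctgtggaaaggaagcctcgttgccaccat
Fabp2 promoter, chr3:122894822-122895121: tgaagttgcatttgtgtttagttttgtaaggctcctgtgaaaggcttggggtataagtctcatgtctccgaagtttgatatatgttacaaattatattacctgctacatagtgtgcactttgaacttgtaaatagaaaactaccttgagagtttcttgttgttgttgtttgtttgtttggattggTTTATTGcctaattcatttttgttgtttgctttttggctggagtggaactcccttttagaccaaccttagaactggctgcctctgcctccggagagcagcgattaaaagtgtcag
Rbp2 promoter, chr9:98490287-98490586: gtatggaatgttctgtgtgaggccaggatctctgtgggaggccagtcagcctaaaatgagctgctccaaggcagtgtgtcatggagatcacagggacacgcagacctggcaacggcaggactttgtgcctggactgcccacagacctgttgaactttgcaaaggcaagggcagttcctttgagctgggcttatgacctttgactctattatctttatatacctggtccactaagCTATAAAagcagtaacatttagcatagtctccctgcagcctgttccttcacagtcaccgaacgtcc
The motif stood in the promoters of 7 of 14 enterocyte genes with a promoter in the table, namely Fabp1, Fabp2, Apob, Rbp2, Alpi, Mep1a and Sis. It stood in 12.5% of the promoters of all 27025 genes of the table. Fabp1 held 3 matches, which began 227, 133 and 89 bases before the start. The match of Rbp2 began 16 bases before the start and reads CTATAAA, which also holds the letters of a TATA box. With that form left out, the motif was found in 4 of 14 enterocyte promoters, against 8.78% of all promoters. The GATA letters AGATAA were found in 2 of 14 enterocyte promoters, against 12.7% of all. The letters CAAAGTCCA or CAAAGTTCA, bound by Hnf4 factors, were found in 3 of 14 (Apoa4, Rbp2 and Alpi), against 0.995% of all. A match is a description of the letters in this window only.

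Cdx1, Cdx2, Hnf4a, Gata4 and Gata6, which encode transcription factors of the intestinal epithelium and mark the labelled tissue, were present in every control. Cdx2 was at 124, 119, 134, 132 and 112 nRPKM in controls 1 to 5, and Hnf4a at 113, 127, 139, 137 and 123 nRPKM. The 8 intestinal transcription factor genes were among the steadiest lists: their summed level differed by 1.17-fold between the lowest and the highest control. Gata4, which marks the proximal small intestine, lay between 37.6 and 45.3 nRPKM.

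The most abundant RNAs were those of fetal growth, fat absorption, oxygen transport and respiration. H19, an imprinted noncoding RNA of fetal tissue, took 2.05% to 2.21% of all counts of a control and had 7811, 7588, 8565, 8019 and 7407 nRPKM in controls 1 to 5. Its neighbour Igf2, the imprinted gene of insulin-like growth factor 2, lay between 885 and 1105 nRPKM. Mir675 ranked above H19 in nRPKM, with 13442, 13001, 14398, 13786 and 12432 nRPKM. Its counts were 5.39% to 5.53% of those of H19 in every control, over a gene model 31.1 times shorter, so this rank cannot be read as the level of the mature microRNA. Mir5114, the other microRNA gene among the 20 highest, lies within Scd2, which encodes a desaturase of fatty acids, and the same limit applies to it.

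Among the 20 highest were 5 genes of lipid and retinol handling in enterocytes. Fabp1, the gene of the liver-type fatty acid-binding protein, had 3056, 4807, 5604, 8089 and 3198 nRPKM in controls 1 to 5. Apoa4, an apolipoprotein of chylomicrons, had 1404, 2903, 3743, 6484 and 1505 nRPKM. Control 4 was the highest and controls 1 and 5 the lowest for both. Apoa1, Fabp2 (the intestinal fatty acid-binding protein) and Rbp2 (a cellular retinol-binding protein) kept the same order, with Rbp2 at 614, 1173, 1553, 2705 and 708 nRPKM. Adult beta globin was listed under both Hbb-b1 and Hbb-bs, with the same lowest and highest counts in a control (36532 and 112618), so the 2 entries cannot be separated. Hbb-bs had 1713, 4698, 1662, 2414 and 1892 nRPKM, with control 2 above the rest. The other named entries among the 20 were the mitochondrial genes CYTB, ND1 and COX1, Lgals4 (galectin-4 of the epithelium), the ribosomal genes Rack1 and Rpl8, and Atp5b of the mitochondrial ATP synthase. A further 3 of the 20 were IDs with no name in the annotation used here. One of them, ID16857, had 2028, 2639, 3093, 3219 and 2056 nRPKM and moved with Lgals4, at 1240, 1612, 1890, 1965 and 1256 nRPKM. Counts in a control ran from 65631 to 96753 for ID16857 and from 69100 to 101765 for Lgals4. Whether these 2 entries share reads was not tested, so they may not be separate signals.

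**Figure D1:**
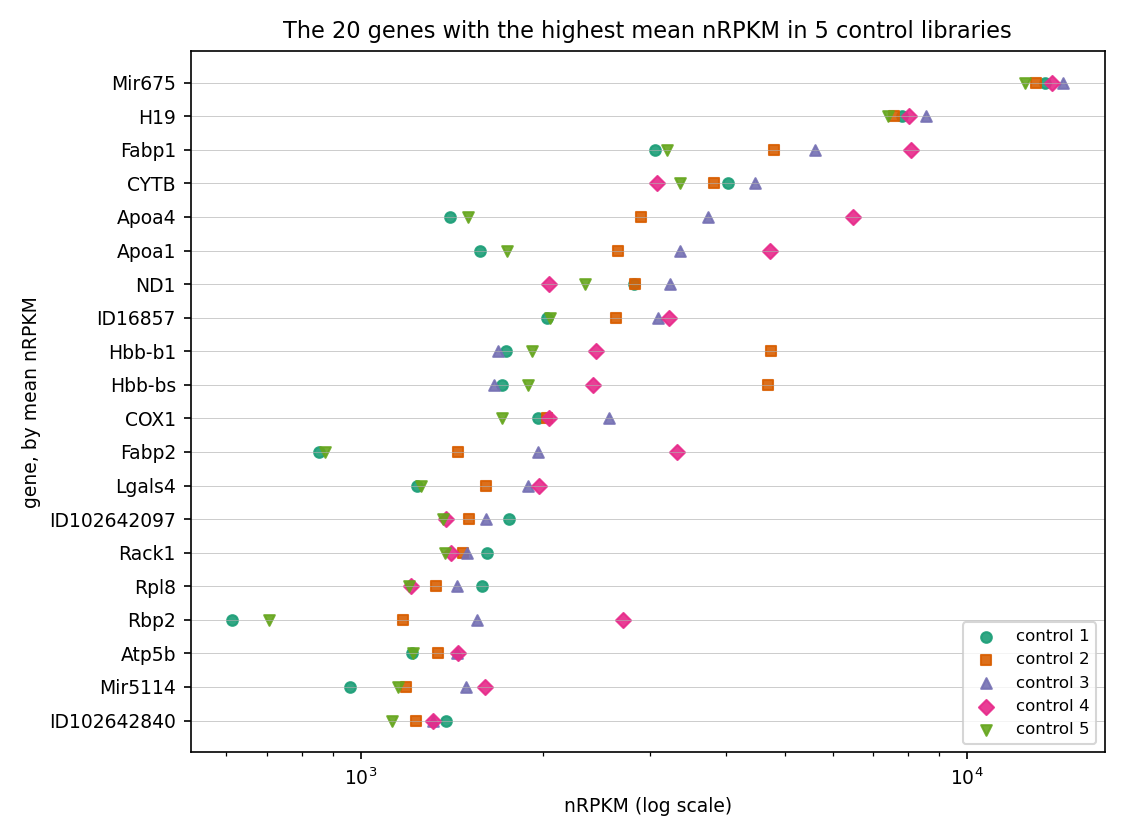
The 20 genes with the highest mean nRPKM in the controls (rows) and their nRPKM in each of the 5 control libraries (points, log axis). Mir675 and H19 lie far right with little spread, while Fabp1, Apoa4, Apoa1, Fabp2 and Rbp2 spread with control 4 at the right end, and both Hbb rows have control 2 apart.

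The 20 entries together held 6.14 ± 0.714% of the counts of a control (SD, n = 5), and 15 genes were among the 20 highest in all 5 controls. Mir675 shares reads with H19, and Hbb-b1 cannot be separated from Hbb-bs. The 20 entries are therefore not all separate genes, and the share holds some reads more than once. Whether ID16857 is a separate signal from Lgals4 was not tested. Of these 20, 19 were also among the 20 highest in the mean of the other 10 libraries, in which they held 5.76 ± 0.688% of counts (n = 10). Ranking by counts in place of nRPKM, which favours long genes, gave a share of 7.65% in the controls. In all, 14284 genes had a mean of at least 1 nRPKM, 674 at least 100 and 26 at least 1000. Mitochondrial genes held 1.13% to 1.64% of the counts of a control.

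Markers of the main cell types of the gut wall were detected. Of 296 list entries found, 240 had a mean of at least 0.5 nRPKM in the controls. The 15 absorptive enterocyte genes had the highest summed level of the cell type lists, 11462, 18866, 23627, 34856 and 12306 CPM in controls 1 to 5. Lct (lactase) had 72.4, 116, 159, 215 and 76.5 nRPKM, whereas Sis (sucrase-isomaltase), which replaces it as the main disaccharidase after weaning, had 0.217, 0.546, 0.395, 0.537 and 0.514 nRPKM. Mttp, which loads lipid onto apolipoprotein B, lay between 262 and 556 nRPKM, and Slc5a1, the sodium-glucose cotransporter gene, between 44.7 and 99.2 nRPKM. Pan-epithelial genes were far steadier: Epcam had 411, 387, 468, 423 and 387 nRPKM, and the sum of the 8 pan-epithelial markers differed by 1.22-fold between controls.

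Secretory lineages of the epithelium were detected at lower levels. Among goblet cell genes, Tff3, which encodes a trefoil peptide of mucus, had 349.5, 613, 452, 892 and 598 nRPKM, while the mucin gene Muc2 had 2.31, 5.59, 7.01, 11.6 and 6.29 nRPKM. Control 1 was the lowest for all 8 goblet genes, and control 4 was the highest for 6. All 12 enteroendocrine genes were detected. Sct (secretin) was the highest of them, with 97.7 to 151 nRPKM. The genes of cholecystokinin (Cck, 23.5 to 49.5 nRPKM), glucagon (Gcg, 27.3 to 34.7 nRPKM) and ghrelin (Ghrl, 7.40 to 12.6 nRPKM) were lower. Neurog3, the transcription factor gene of endocrine progenitors, was at 4.13 to 5.33 nRPKM. Of the Paneth cell genes, Lyz1 (lysozyme) had 3.89 to 6.15 nRPKM and the alpha-defensin gene Defa24 17.3 to 68.9 nRPKM, while Defa30 had at most 2 counts in a control. Defensin genes are near-identical copies, and their counts of unique alignments are uncertain.

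Genes of dividing cells were well detected. Mki67, a marker of cycling cells, had 35.7, 31.3, 31.2, 22.3 and 32.7 nRPKM, and Ccna2 (cyclin A2) 78.1, 68.1, 67.3, 51.2 and 74.4 nRPKM. All 10 proliferation genes were lowest in control 4, the library with the most enterocyte RNA. The crypt stem cell genes Lgr5 (1.87 to 2.92 nRPKM) and Ascl2 (1.69 to 2.60 nRPKM) were low. Olfm4, which marks crypt progenitors in the adult, ran the other way from the proliferation genes, with 6.48, 13.6, 20.4, 26.4 and 7.47 nRPKM.

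Smooth muscle, nerve and vessel genes gave steady signals. Actg2, the smooth muscle gamma-actin gene, had 681, 797, 938, 896 and 754 nRPKM, and the sum of 10 smooth muscle genes differed by 1.21-fold between controls. Fibroblast collagens were abundant, with Col3a1 at 515, 476, 323, 311 and 387 nRPKM, and the fibroblast sum was highest in control 1 and lowest in control 4. Enteric neurons were marked by Ret, the receptor gene of neural crest migration (9.57 to 10.3 nRPKM) and Vip (9.16 to 11.7 nRPKM), and glia by Sox10 (5.02 to 7.37 nRPKM) and Erbb3 (24.9 to 32.1 nRPKM). Gfap, a marker of mature glia, had 14 to 25 counts per control. Endothelial Pecam1 and Cdh5 lay between 23.3 and 28.6 nRPKM, interstitial cell of Cajal marker Kit between 6.98 and 9.31 nRPKM, and mesothelial Upk3b between 41.6 and 53.3 nRPKM. 

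Macrophage genes had the highest sum of the immune lists. The complement genes C1qa, C1qb and C1qc lay between 19.7 and 39.2 nRPKM, and Csf1r, the receptor gene of macrophage growth factor, had 13.1, 17.8, 23.2, 29.1 and 12.2 nRPKM. Neutrophil genes were low: S100a9 had 5.63, 16.4, 14.9, 20.3 and 3.42 nRPKM, with controls 1 and 5 below the other 3. Of the 9 lymphoid genes, 5 had a mean of at least 0.5 nRPKM, among them Ptprc (1.60 to 2.04 nRPKM), a gene of all leukocytes, and Il2rg (3.39 to 4.85 nRPKM), which encodes a shared cytokine receptor chain. Cd3e of T cells and Ms4a1 of B cells had 0 to 5 counts in any control, where 3 counts correspond to 0.0826 CPM in the deepest control.

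Markers of neighbouring organs were uneven. Of the 13 stomach genes, 5 had a mean of at least 0.5 nRPKM. Muc5ac, the mucin gene of the gastric surface, had 0 counts in every control, Gkn1 had at most 5, and Atp4b, a proton pump gene of parietal cells, at most 1. The gastric antral genes Gkn3 and Tff2 were present, with Tff2 at 0.344, 3.17, 7.89, 11.1 and 0.500 nRPKM. Of the 14 pancreas genes, 8 reached that level. Pnlip and Amy2a5 had at most 2 counts, while Ctrb1, the chymotrypsinogen B gene, had 3.86, 11.8, 19.003, 28.4 and 73.998 nRPKM. Of the 10 liver genes, 9 reached it, and Alb (albumin) had 14.03, 169.8, 49.9, 22.05 and 5.69 nRPKM. Of the 10 squamous genes, Krt14 (0.762 to 3.25 nRPKM) and Krt15 (0.948 to 2.66 nRPKM) reached it, and Krt5 had no more than 0.218 nRPKM in a control. Of the 5 fat genes, Fabp4, which endothelium also expresses, had 62.9 to 82.8 nRPKM and Cidec, a gene of lipid droplets that enterocytes also express, 10.6 to 34.4 nRPKM, while Adipoq of adipocytes had at most 2 counts. Of the 6 adrenal and gonad genes, Cyp11a1 (2.21 to 3.95 nRPKM) and Star (0.934 to 1.17 nRPKM) of steroid synthesis were detected, while Cyp11b1 of the adrenal cortex had 0 counts in every control. Whether organ pieces adjoining the gut were sampled with it was not tested.

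**Figure D2:**
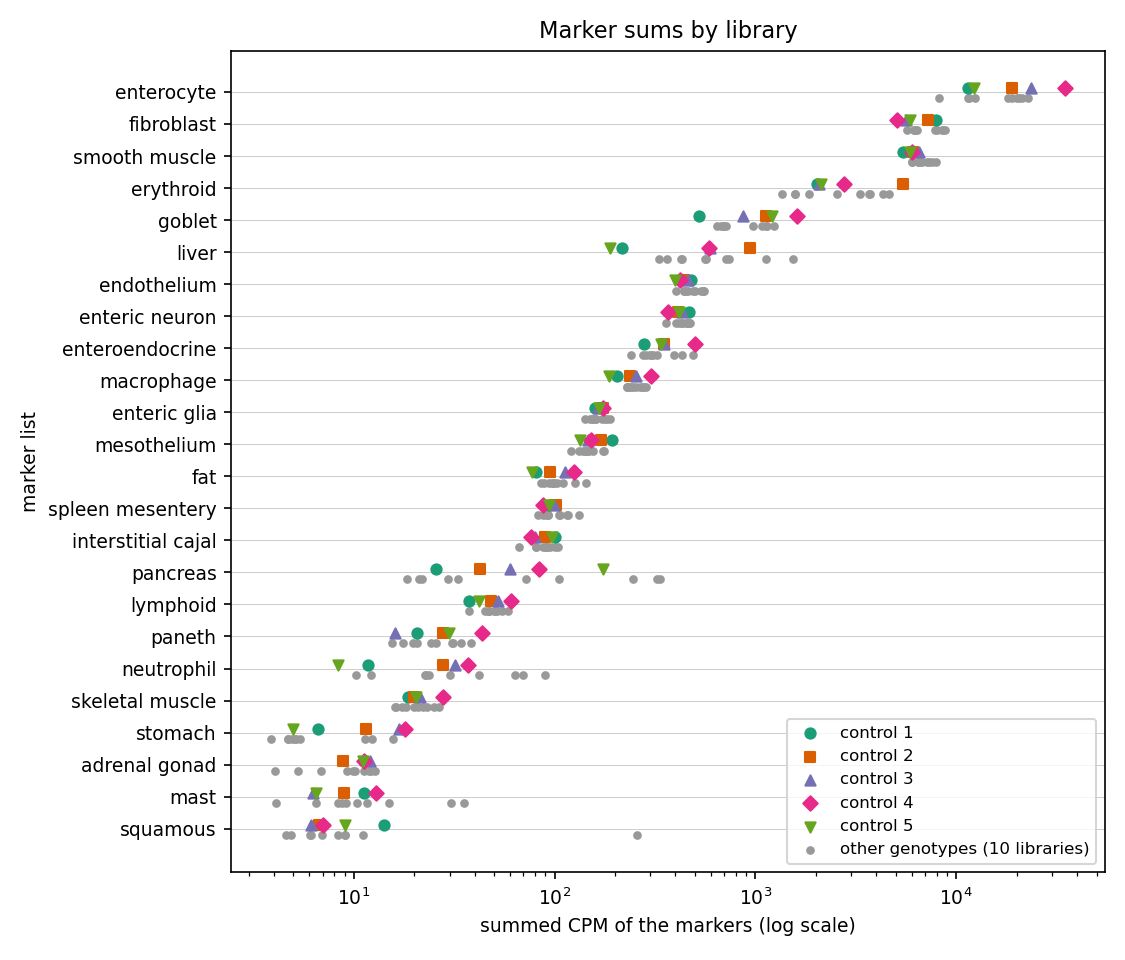
Summed CPM of each marker list (rows, log axis) in the 5 controls (coloured symbols) and in the 10 libraries of the other genotypes (grey points below). Enterocyte, goblet, liver, pancreas, neutrophil and stomach rows spread widely among the controls, while smooth muscle, endothelium, enteric neuron and glia rows are tight.

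Variation between the controls was measured as the biological coefficient of variation (CV), the SD between libraries beyond counting error divided by the mean. The common value for the control group was 0.162, against 0.136 in the Casp8 knockout and 0.173 in the C362A libraries. Leaving out 1 control in turn gave 0.137 (without control 4) to 0.180 (without control 2), a range that holds the C362A value and ends above that of the knockout, and the difference between groups was not tested. Over the 15059 genes whose mean count in the controls reached 50, the median CV of a gene was 0.103 and the 95th percentile 0.328. A CV of at least 0.5 was reached by 247 genes in the controls, 1.64% of genes, against 162 (1.08%) in the knockout and 387 (2.57%) in the C362A libraries. Of the 247, 79 (31.98%) also reached 0.5 in the knockout and 122 (49.4%) in the C362A libraries, which is 48.8% of the knockout's variable genes and 31.5% of those of C362A. The number was 142 without control 4 and 337 without control 3. The genes just inside and just outside the threshold had CVs of 0.5002 and 0.4995.

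**Figure D3:**
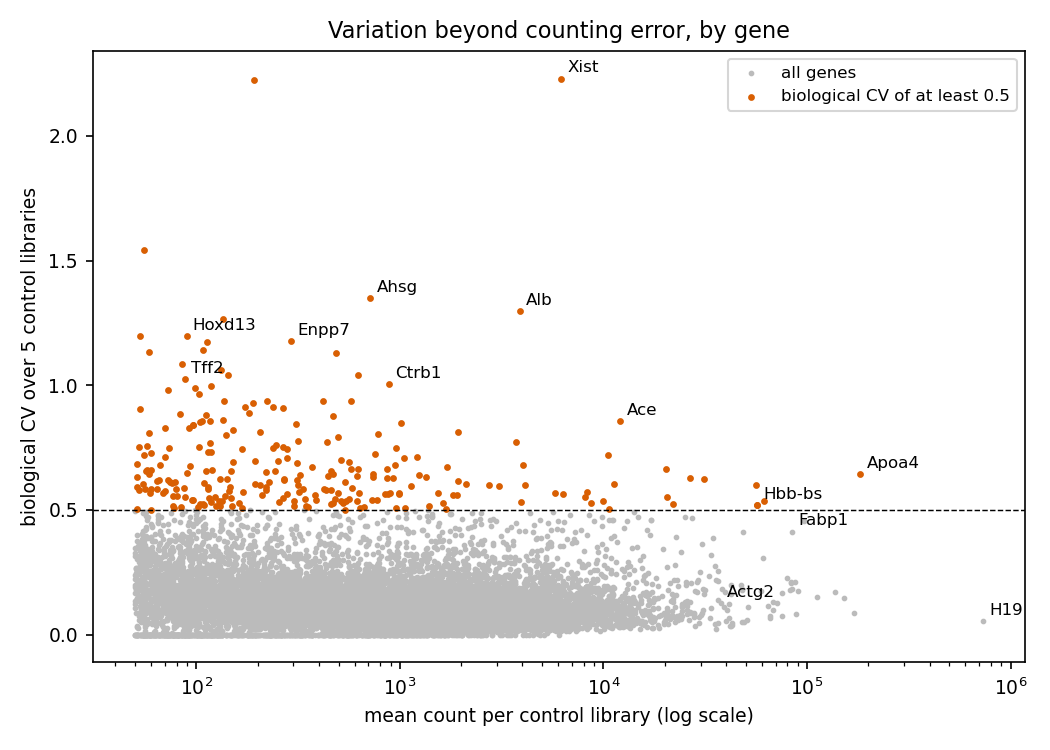
Biological CV over the 5 controls (vertical axis) against mean count (log axis) for 15059 genes, with genes at or above 0.5 (dashed line) in orange. Most genes lie near the median of 0.103, H19 near the bottom at the highest count, and Alb, Ace and Apoa4 are variable despite high counts.

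A single order of the libraries ran through most of the variable genes. Of the 247, 162 were highest in control 4, as were 28.1% of all 15059 genes, and 157 were lowest in control 1. The order of control 4 above controls 2 and 3, and these above controls 1 and 5, was found in 141 of the 247 genes (57.1%), against 15.6% of all 15059 genes. This order was noticed in the same libraries and is a description. The first principal component of log2(CPM + 1) held 62.5% of the variance among controls and placed control 4 and control 1 at its ends, and the second, with 18.7%, set control 5 apart from control 1.

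The 40 genes with the largest CV were sorted, after their values were seen, by what they are known for. They fell into genes of the sex chromosomes, liver plasma proteins, posterior Hox genes, exocrine pancreas, stomach, absorptive and secretory epithelium and red cell precursors. The others were other known genes and genes with no role given here. Some of the 40 overlap on the genome (Gm30505 with Ahsg, Slc13a2os with Slc13a2, Gm11127 with Gm6034), so not all need be separate signals. CVs of the 40 ran down to 0.856, and the gene of rank 41 had 0.854.

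**Figure D4:**
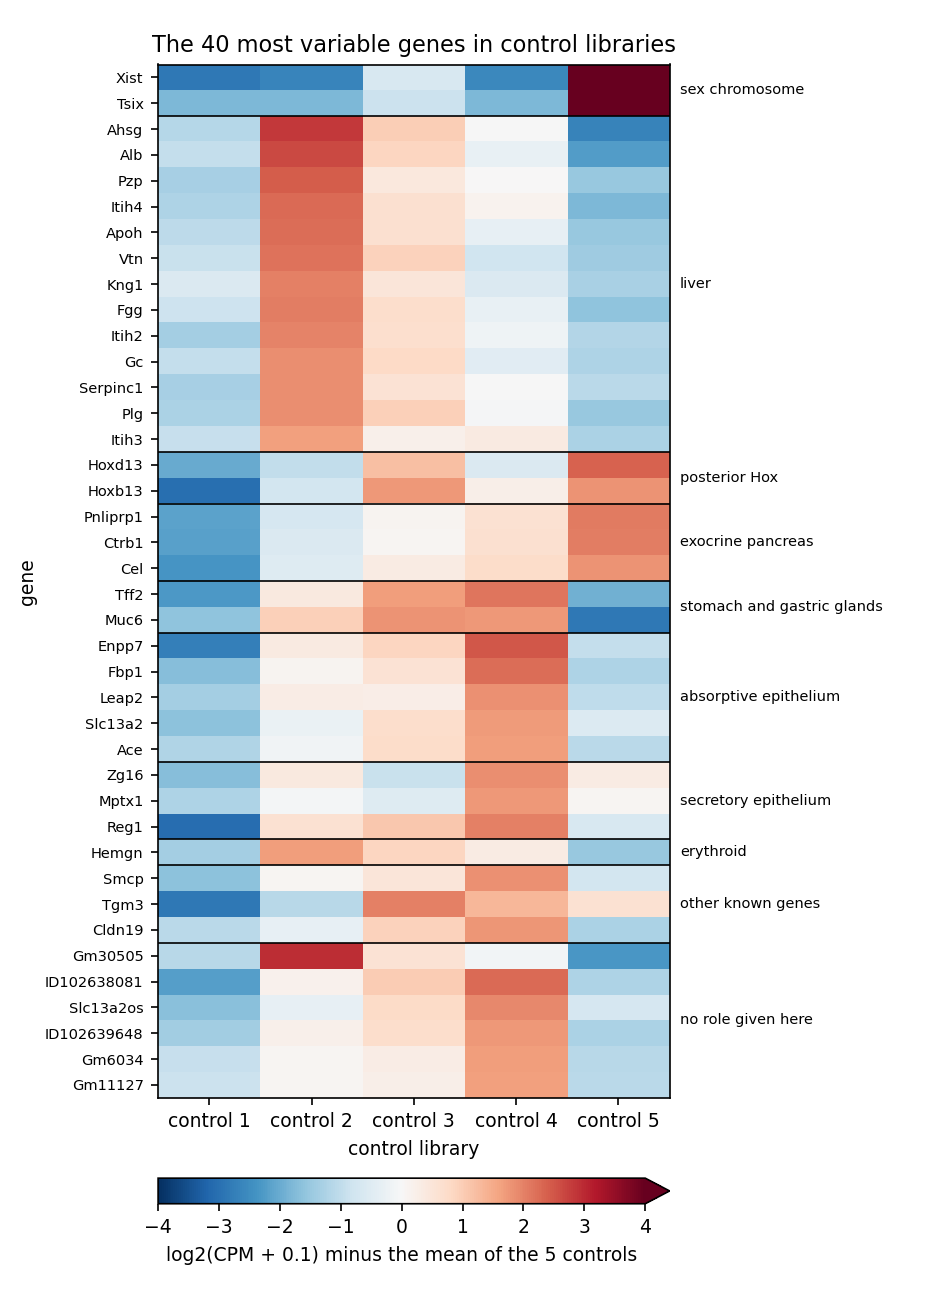
Level of each of the 40 most variable genes (rows, grouped by known role) in each control (columns), as log2(CPM + 0.1) minus the mean of the 5 controls, with colours ending at 4. Liver rows are red in control 2, epithelial rows in control 4, pancreas and posterior Hox rows in control 5, and Xist and Tsix in control 5 beyond the end of the colour scale.

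Xist, the noncoding RNA that silences an X chromosome, had 0.173, 0.219, 1.16, 0.229 and 824 CPM in controls 1 to 5. Its antisense partner Tsix had 25.5 CPM in control 5 and at most 0.0892 CPM in the others, and without strand its reads cannot be told from those of Xist. Ddx3y, Eif2s3y, Kdm5d and Uty, genes of the Y chromosome, had 0 to 2 counts in control 5, and Ddx3y lay between 7.11 and 8.43 nRPKM in the other 4. Leaving out Xist and the Y-linked genes left the common CV at 0.162.

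Genes of absorptive enterocytes followed this order closely. Enpp7, the alkaline sphingomyelinase of the brush border, had 0.636, 6.09, 8.71, 27.02 and 2.40 CPM. Fbp1, the gluconeogenic enzyme fructose-bisphosphatase, had 2.77, 10.03, 13.8, 43.8 and 3.91 CPM, and Leap2, which encodes an antimicrobial peptide that is also an antagonist of the ghrelin receptor, had 4.88, 15.7, 15.1, 45.4 and 6.23 CPM. Control 4 was the highest in each and control 1 the lowest. Slc13a2, the gene of a dicarboxylate transporter, and Ace, the gene of the angiotensin-converting enzyme of the brush border, kept that order, and Ace did so at high counts, with 119.9, 252, 458, 874 and 131 CPM. These 5 genes were picked for their CV in the controls. Their CVs were 0.263 to 0.481 in the knockout, where 1.08% of all genes and 31.98% of the 247 variable genes reached 0.5, and 0.619 to 1.06 in the C362A libraries, where 2.57% and 49.4% did.

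Across the enterocyte list, 14 of 15 genes were highest in control 4, as were 28.1% of all well-counted genes, and 14 were lowest in control 1. The spread was unequal: Apoa4 had a CV of 0.645 and Fabp2 0.600, against 0.21 for Vil1 (villin of the brush border core) and 0.22 for Mep1a (a metalloprotease). Sample ID numbers of the controls fell in 2 consecutive runs, controls 1 and 3 in the first and controls 2, 4 and 5 in the second. The highest enterocyte sum was 3.04-fold the lowest over all controls, 2.06-fold within the first run and 2.83-fold within the second. Of the 15 genes, 4 reached a CV of 0.5, where 1.64% of all genes did. The enteroendocrine genes Gip, Sst and Pyy also reached 0.5; Gip, the incretin gene, had 3.29, 9.91, 9.15, 25.5 and 6.22 nRPKM and Sst (somatostatin) 4.83, 10.99, 10.7, 30.4 and 11.2 nRPKM, with control 4 the highest. In these bulk libraries, fewer cells of a type and less RNA per cell cannot be told apart.

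The proliferation list moved oppositely but less, with 1601, 1460.0, 1329, 1069 and 1549 summed CPM in controls 1 to 5, a 1.498-fold range, and no member at a CV of 0.5. Of the 8 imprinted growth genes, 4 were lowest in control 4, Dlk1 and Grb10 among them, 3 in control 5 and 1 in control 3. For Dlk1, controls 4 and 5 were nearly equal. Dlk1, a growth regulator of fetal mesenchyme, had 115, 70.5, 52.05, 43.6 and 44.6 nRPKM, and Grb10 had 134, 116, 102, 81.9 and 117 nRPKM. Cdkn1c, the imprinted inhibitor of the cell cycle, ran the other way, with 336, 351, 453, 509 and 313 nRPKM. The embryonic globin Hbb-y had 7.26, 4.48, 3.19, 1.03 and 5.24 nRPKM, also lowest in control 4, on 20 to 160 counts per library.

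Secretory genes followed the enterocytes in part. Zg16, a lectin of goblet cell granules, had 1.39, 6.22, 2.53, 17.2 and 5.99 CPM, with control 3 next above control 1. Mptx1, a mucosal pentraxin gene, had 2.31, 5.24, 3.81, 18.6 and 5.83 CPM. In the goblet sum, 526, 1125, 867, 1614 and 1217 CPM, control 5 came second to control 4, unlike its place in the enterocyte sum, where it was next to the lowest.

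Liver genes made up 13 of the 40, and control 2 was the highest in all 13. Ahsg, which encodes the fetal plasma protein fetuin-A, had 4.16, 67.8, 18.6, 9.34 and 1.38 CPM, and Alb had 29.5, 357, 104, 45.999 and 11.9 CPM. Control 5 was the lowest in 11 of the 13. Afp (alpha-fetoprotein), which the fetal gut also expresses, kept a different order, with 57.5, 182, 186, 209 and 57.1 nRPKM, with controls 2, 3 and 4 close together. Adult haemoglobin genes and Hemgn, a gene of red cell precursors, were likewise highest in control 2, and the erythroid sum was 2028, 5419, 2075, 2768 and 2134 CPM. Alas2, the haem synthesis gene of red cells, had 25.7, 78.9, 33.2, 30.3 and 23.6 nRPKM. These 13 genes were also picked for their CV in the controls. All 13 reached 0.5 in the knockout, against 1.08% of all genes and 31.98% of the 247, and 5 did in the C362A libraries, against 2.57% and 49.4%. Whether liver tissue or blood entered a library was not tested.

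Of the 7 well-counted pancreas genes, 5 were highest in control 5 and 2 in control 4, and 5 were lowest in control 1. Pnliprp1, a pancreatic lipase-related gene, had 2.51, 7.10, 12.2, 17.2 and 48.7 CPM, and Cel, the bile salt-dependent lipase gene, 0.231, 1.10, 2.05, 2.74 and 5.75 CPM. The CVs of the 3 pancreas genes among the 40 were 0.883 to 1.04 in the controls, 1.08 to 1.10 in the knockout and 1.58 to 1.77 in the C362A libraries. The whole pancreas list summed to 25.8, 42.4, 60.1, 83.8 and 174 CPM in controls 1 to 5, against 18.5, 52.4 and 334 CPM as the lowest, median and highest of the other 10 libraries. Tff2 and Muc6, genes of antral and duodenal glands, were higher in controls 2, 3 and 4 than in controls 1 and 5, with Muc6 at 0.202, 1.70, 3.09, 2.94 and 0.0266 CPM.

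Posterior Hox genes differed between the controls in an order that changed with their number in the cluster. Hoxd13 had 0.102, 0.247, 1.29, 0.348 and 2.92 nRPKM and Hoxb13 0.193, 1.22, 7.17, 2.46 and 7.35 nRPKM in controls 1 to 5, with controls 3 and 5 the highest. These 2 genes are the 5′-most members of their clusters and mark the hindgut end. Hoxc13 had 0 counts in every control. Summed over the 4 clusters, the group 13 genes had 0.573, 2.11, 9.30, 3.25 and 11.3 nRPKM. The group 10 genes had 9.26, 4.90, 2.14, 5.73 and 6.92 nRPKM, so that control 3 was second highest for group 13 and lowest for group 10, whereas control 1 was the lowest for group 13 and the highest for group 10. The group 9 genes had 9.77, 5.92, 4.02, 7.05 and 6.84 nRPKM, the group 11 genes 4.33, 3.07, 1.53, 3.51 and 4.44 nRPKM and the group 12 genes 0.244, 0.158, 0.436, 0.151 and 0.927 nRPKM. Control 5 was thus the highest for groups 11, 12 and 13 and second for group 10. Hoxd10 alone had 3.93, 1.81, 0.376, 1.9978 and 2.49 nRPKM. These sums were taken after the values of Hoxd13 and Hoxb13 were seen.

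**Figure D5:**
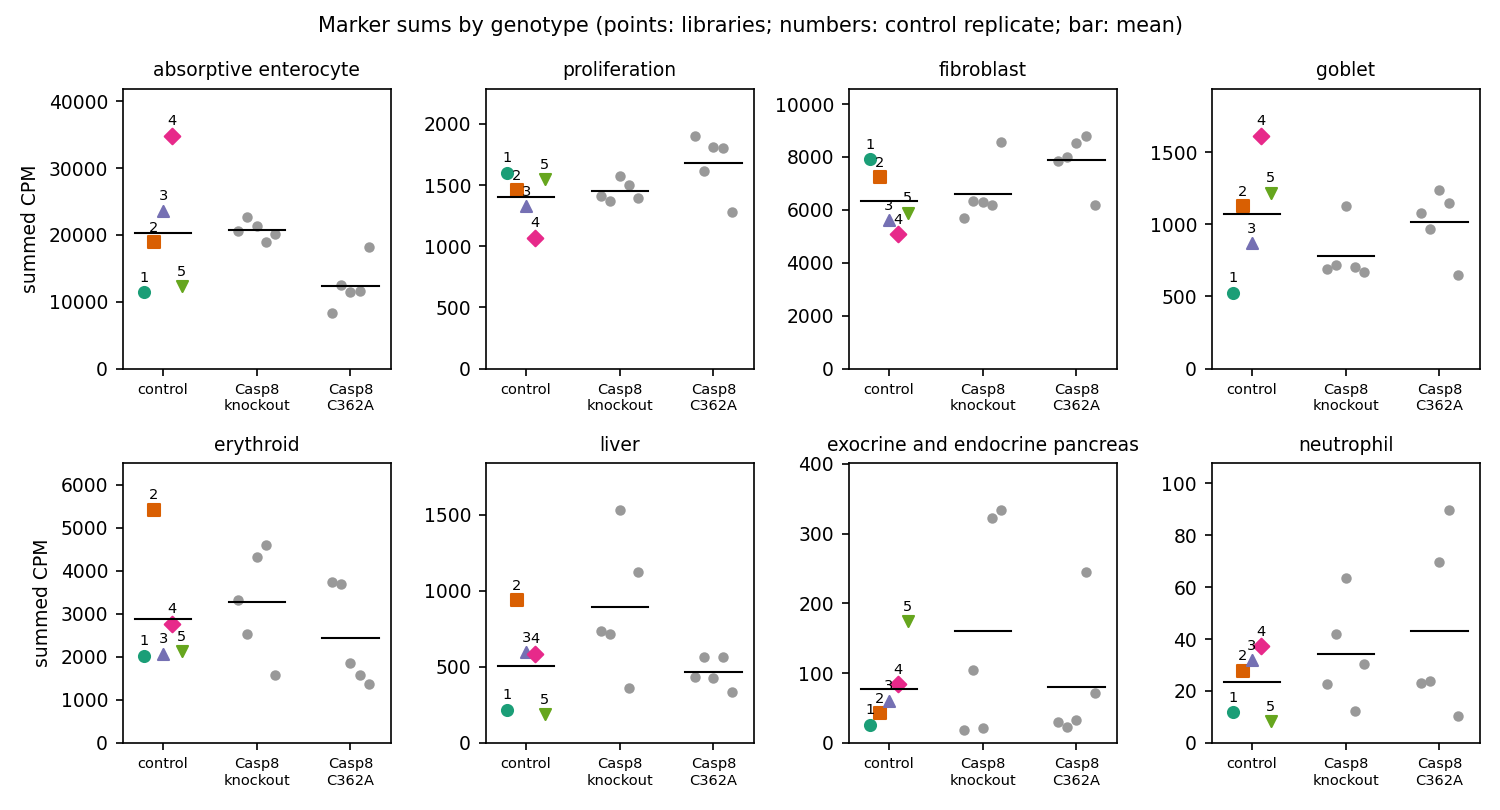
Summed CPM of 8 marker lists in each library, with controls at the left (numbered 1 to 5), then Casp8 knockout and C362A libraries (grey), and group means as bars. Control 4 is the highest enterocyte point of all 15 libraries and the lowest proliferation point, and control 2 the highest erythroid point.

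Against the other 10 libraries, the controls differed in few genes. The enterocyte sum of the controls, 11462 to 34856 CPM, overlapped that of the knockout (18994 to 22727 CPM) and of the C362A libraries (8239 to 18171 CPM). The mean was 20223 ± 9579 CPM in the controls, 20756 ± 1379 CPM in the knockout and 12380.3 ± 3613 CPM in the C362A libraries (SD, n = 5 each). All 15 enterocyte genes had a positive log2 fold change of controls over the rest, with a median of 0.27, against 50.8% of all genes and a median of 0.00274, and none passed the test. By edgeR's quasi-likelihood test on all 15 libraries with Benjamini-Hochberg adjustment, 11 of 18370 genes (0.0599%) passed an adjusted p of 0.05, 1 higher in the controls (0.00544%) and 10 lower (0.0544%). At an unadjusted p under 0.05, 1067 genes (5.81%) passed. Without control 5 only 5 genes passed, without control 3 it was 6 and without control 2 it was 7.

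Casp8 was the 1 gene higher in the controls, by a log2 fold change of 1.14 (SE 0.067, edgeR adjusted p = 5.84e-08) against the mean of the other genotypes. That difference came from the knockout, whose libraries averaged 14.4 CPM, while the controls averaged 70.0 ± 5.97 CPM and the C362A libraries 69.9 CPM (n = 5 each). None of its partners in cell death complexes passed the test, where 0.0599% of all genes did, so this says little about them. Ripk1 averaged 59.5 ± 4.29 CPM in the controls and 60.5 ± 3.43 CPM in the rest, and Ripk3, Cflar and Fadd had log2 fold changes between −0.01 and 0.05, with edgeR adjusted p-values of 0.848 to 0.969.

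Of the 10 genes lower in the controls, Cxcl10 belongs to the interferon list. None is in the short macrophage, neutrophil or mast cell list, but only 0.0544% of all genes were lower, so this says nothing about these cells. Mmp9, a gelatinase of neutrophils and macrophages, had 12.4, 18.6, 16.2, 19.6 and 11.98 CPM in controls 1 to 5, against 25.4, 34.8 and 45.03 CPM as the lowest, median and highest of the other libraries. Its log2 fold change was −1.12 (SE 0.142, edgeR adjusted p = 0.0022). Cxcl10, an interferon-induced chemokine, had 0.559 to 0.849 CPM in the controls, on 21 to 29 counts, and 1.62 to 5.41 CPM in the rest (log2 fold change −1.995, SE 0.186, edgeR adjusted p = 4.34e-05). Clec4n, which encodes the C-type lectin Dectin-2, and Dnase1l3, a secreted DNase of myeloid cells, had log2 fold changes of −0.95 and −1.11 (edgeR adjusted p = 0.00224 and 0.0244). Dnase1l3 lost its call without control 1, 2, 3 or 5 and without any of 4 libraries of the other genotypes, with edgeR adjusted p-values of 0.0530 to 0.144. The other 6 were Slamf8, Mgl2, Spic, Ccl12, an unnamed ID with the same counts as Ccl12, and Serpina3f, each below 1 CPM in every control and named here after their values were seen. Mmp9 and Dnase1l3 kept the order of the variable genes within the controls, with controls 2, 3 and 4 above controls 1 and 5. Cxcl10 did not, with 0.849 CPM in control 4 and 0.838 CPM in control 1. All 9 tested genes of the neutrophil list had a negative log2 fold change of controls over the rest, with a median of −0.82. Of all genes, 50.8% had a positive one, with a median of 0.00274. None of the 9 neutrophil genes passed, where 0.0599% of all genes did. The summed level of the list was 11.8, 27.8, 31.9, 37.3 and 8.39 CPM in controls 1 to 5, against 10.2, 26.96 and 89.8 CPM as the lowest, median and highest of the rest. The highest sums of the rest were those of C362A libraries 4 and 3 (89.8 and 69.6 CPM) and knockout library 3 (63.7 CPM), numbered likewise. The macrophage sum was 205, 237, 256, 301 and 187 CPM in controls 1 to 5, against 229, 249.4 and 287 CPM in the rest. None of the 9 macrophage genes passed, where 0.0599% of all genes did. The part of these cells in the lower genes was not tested.

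The interferon list showed both patterns. Its sum was 88.5, 104, 112, 148 and 91.6 CPM in controls 1 to 5, against 108, 126 and 165 CPM as the lowest, median and highest of the rest. Of its 8 well-counted members, 7 were highest in control 4, as were 28.1% of all well-counted genes. All 12 members had a negative log2 fold change of controls over the rest, with a median of −0.31. Of all genes, 50.8% had a positive one, with a median of 0.00274. Cxcl10 was the member that passed as lower, where 0.0544% of all genes did. Irf7, a transcription factor gene of the interferon response, had 2.34, 3.85, 5.47, 9.53 and 2.48 nRPKM in the controls, so that control 4 exceeded the highest of the other libraries, 8.04 nRPKM.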

How the data were processed

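The data are RNA-seq of polyadenylated RNA from 15 libraries, read as 50-base single ends from 0.5 ug of column-purified, DNase-treated RNA with a kit that does not mark strand, per the labels' protocols. The deposited count of a gene is the number of reads aligning uniquely to its gene model, and the deposited RPKM value (nRPKM) is adjusted by a size factor, per the file headers. GSNAP and GRCm38 are named in the submitters' processing notes. Counts of 36528 gene IDs were used as deposited; 31049 were named from RefSeq (GRCm38.p6), 78 from GENCODE, and 5401, with 1.83% to 1.89% of a control's counts, stayed unnamed. Deposited nRPKM was the count divided by 1 constant per gene and 1 per library in all 19328 genes compared (largest residual 5e-14 on the log2 scale).

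CPM were scaled by TMM in edgeR 4.0.16 (R 4.3.3). The biological CV of a gene was the square root of its variance minus the Poisson part, over its mean, for genes with mean control counts of 50 or more, with a threshold of 0.5. The 20 genes of highest mean nRPKM, the 40 genes of highest CV, list members, and called genes with a mean log2 CPM above 1 were named. Controls were set against the mean of the other genotypes with edgeR's quasi-likelihood test (filterByExpr, minimum count 10, total 15) and Benjamini-Hochberg adjustment over 18370 genes. It was tested on simulated data. DESeq2 1.42.0 and limma 3.58.1 were alternatives, beside other scalings, filters and left-out libraries. Members and lists were chosen with earlier results of these data known. Counts of 0 allow up to 3 counts, for counting error only. Reads carry no molecular identifiers. A few list members are not reported here by name.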

Additional observations from a re-analysis of the deposited data

Results flagged for a closer look

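For each of 123 gene and list values, the gap between the most extreme control and its nearest neighbour was divided by the range of the 5 controls. In 23 of them this ratio passed Dixon's critical value of 0.71. Chance flags about 1 in 20 groups that were not chosen for their spread. That rate does not apply to the 40 most variable genes, which are among the 123 and were chosen for it, and all values share the same libraries.

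Control 2 lay far above the other controls in red cell and liver genes. The ratio was 0.782 for the erythroid sum, 0.756 for both Hbb-b1 and Hbb-bs, which are not separate signals, and 0.83 for Alas2. Among plasma protein genes it was 0.74 for Ahsg, 0.732 for Alb, 0.804 for Pzp, 0.721 for Itih4, 0.724 for Apoh and 0.728 for Kng1. The predicted gene Gm30505, with 0.26, 5.84, 1.04, 0.621 and 0.0533 CPM in controls 1 to 5, had 0.829. Its gene model (chr16:22874983-22894386) overlaps that of Ahsg (chr16:22892015-22899451). Without strand, reads in the overlap cannot be told apart, so this may not be a separate signal.

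Control 4 lay far above the others in epithelial genes, with ratios of 0.731 for Fbp1, 0.734 for Leap2, 0.784 for Mptx1 and 0.751 for Sst. The predicted genes Gm6034 and Gm11127 had 0.723 and 0.733, also from control 4. Gm11127 lies within the span of Gm6034, so these may not be separate signals. The skeletal muscle sum, 18.7, 19.9, 21.3, 27.9 and 20.5 CPM, had 0.72. Only 1 of its 4 well-counted members was highest in control 4, with 2 highest in control 1 and 1 in control 5.

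Control 5 was far apart in Xist (0.999), Tsix (0.996) and the sex-linked sum (0.976). Control 1 was high in the distal gut sum, 29.2, 23.8, 23.1, 23.6 and 22.4 CPM, with 0.797. Its 2 well-counted members did not move together: 1 was highest in control 1 and 1 was lowest there. Control 2 was low in the adrenal and gonad sum, 11.2, 8.88, 11.99, 11.3 and 11.2 CPM, with 0.734. Of the 2 well-counted members of that list, 1 was lowest in control 2 and 1 in control 4.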

How the results depend on the processing

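No paired analysis was possible because the labels give no replicate numbers. The common CV, 0.162, lay between 0.137 and 0.180 when each control was left out. The number of genes with a CV of at least 0.5, 247, became 523 at a mean count of 10 and 82 at 500, and lay between 142 (without control 4) and 337 with a control left out; other scalings changed it by less than 1.5 times. Without control 4, Mptx1, Gm6034 and Gm11127 no longer reached 0.5. The share held by the 20 top genes was 7.65% when ranked by counts. The 11 genes that differed between controls and the rest became 28 with DESeq2 and 7 at an adjusted p of 0.01, and lay between 5 and 15 with a library left out (7 without control 2). The log2 fold change of Casp8 stayed between 1.11 and 1.18. Of 36 lists, 12 had a library 2-fold over another, and 6 did between controls 1 and 3, the first run of sample IDs, where 2 libraries give a smaller range by construction. The 5 libraries of the group limit every spread given here, and genes below a mean count of 50 have no CV.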

Other observations

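The other known genes among the 40 most variable were Smcp, Cldn19 and Tgm3. Smcp, a sperm mitochondrial protein gene, had 2.83, 9.59, 12.8, 32.997 and 5.46 CPM in controls 1 to 5, and Cldn19, a tight junction gene known from kidney and retina, had 1.91, 3.23, 7.82, 14.4 and 1.65 CPM. Tgm3, a transglutaminase gene of stratified epithelia, had 0.231, 1.01, 9.67, 5.98 and 3.57 CPM, with control 3 the highest.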
